A study of Homo sapiens with 6 samples.

Results

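The nuclear genes for proteins of the mitochondrial ribosome were followed in RD cells, an established embryonal rhabdomyosarcoma line, after knockdown of the kinase TAK1. A row of the count table was taken as a member when its symbol was exactly MRPL or MRPS, then digits and at most a single letter, so rows for pseudogenes, read-through transcripts and antisense RNAs were left out. The rule uses names only, and it found 78 of the 58735 rows, 49 for the large subunit (MRPL) and 29 for the small subunit (MRPS). Poly(A) RNA was sequenced from 3 samples of RD cells with a scrambled shRNA (control) and 3 samples with a TAK1 shRNA (TAK1 knockdown), all made with the same lentiviral vector, which carries mCherry and a puromycin resistance gene. A single shRNA sequence against TAK1 was used, so effects of that sequence and of TAK1 loss cannot be told apart here. The labels do not say whether the 3 samples of a group were grown separately, and the p-values then measure only the spread between these samples, which may be technical. In bulk RNA, fewer cells of a kind and less RNA per cell cannot be told apart.

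The mitochondrial ribosome translates the few mRNAs that the mitochondrial genome encodes, all of which give subunits of the oxidative phosphorylation complexes. Its rRNAs are made inside the organelle, while all of its proteins are encoded in the nucleus, translated in the cytosol and imported. A part of these proteins has relatives in the bacterial ribosome and another part is particular to mitochondria, and the genes are transcribed in nearly all cells, muscle included. Symbols and structure do not match throughout: the proteins of MRPS18A and MRPS30 sit in the large subunit, and MRPS36 encodes a subunit of the 2-oxoglutarate dehydrogenase complex of the citric acid cycle.

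Between 28839898 and 34469323 counts were deposited per sample, and at least 99.9% fell in the 15935 genes that passed edgeR's default filter on low counts. Levels are given as CPM, counts divided by the library size after scaling with the trimmed mean of M-values (TMM). A gene was called higher or lower where the quasi-likelihood test of edgeR gave a p under 0.05 after adjustment over all tested genes by Benjamini and Hochberg and the log2 fold change, knockdown over control, was at least 0.25 in size. MAP3K7, the gene for TAK1, had 77.9, 76.5 and 77.6 CPM in the control samples and 30.5, 33.6 and 29.9 CPM in the knockdown samples (log2 fold change -1.30 ± 0.062 SE, edgeR adjusted p = 4.45e-14). The muscle regulators MYOD1 and MYOG were expressed in all 6 samples and were called higher in the knockdown, by 0.37 and 0.27 on the log2 scale, and the intermediate filament gene DES stood at 336 to 374 CPM, while MYF5 was at 0 in all 6 samples. The markers of other cell types were at 0 to 15 counts for PTPRC, PECAM1, EPCAM and ALB, but KRT18, an epithelial keratin, was at 52.4 to 59.5 CPM in control and 25.5 to 27.6 CPM in knockdown samples. The part of these marker changes in the results below was not tested.

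All 78 members passed the filter. In the knockdown, 9 members were called lower and 1 was called higher. The share of members called lower, 11.5%, stood close to the 11.3% of all tested genes called lower, while the share called higher, 1.28%, stood below the 11.8% of all tested genes called higher. The 5 members of the large subunit called lower were MRPL16, MRPL24, MRPL42, MRPL39 and MRPL22, and no large subunit member was called higher. In the small subunit MRPS15, MRPS36, MRPS10 and MRPS6 were called lower and MRPS33 was called higher. Their levels fell by 16.7% to 54.7% among the 9 lower members.

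**Figure D1:**
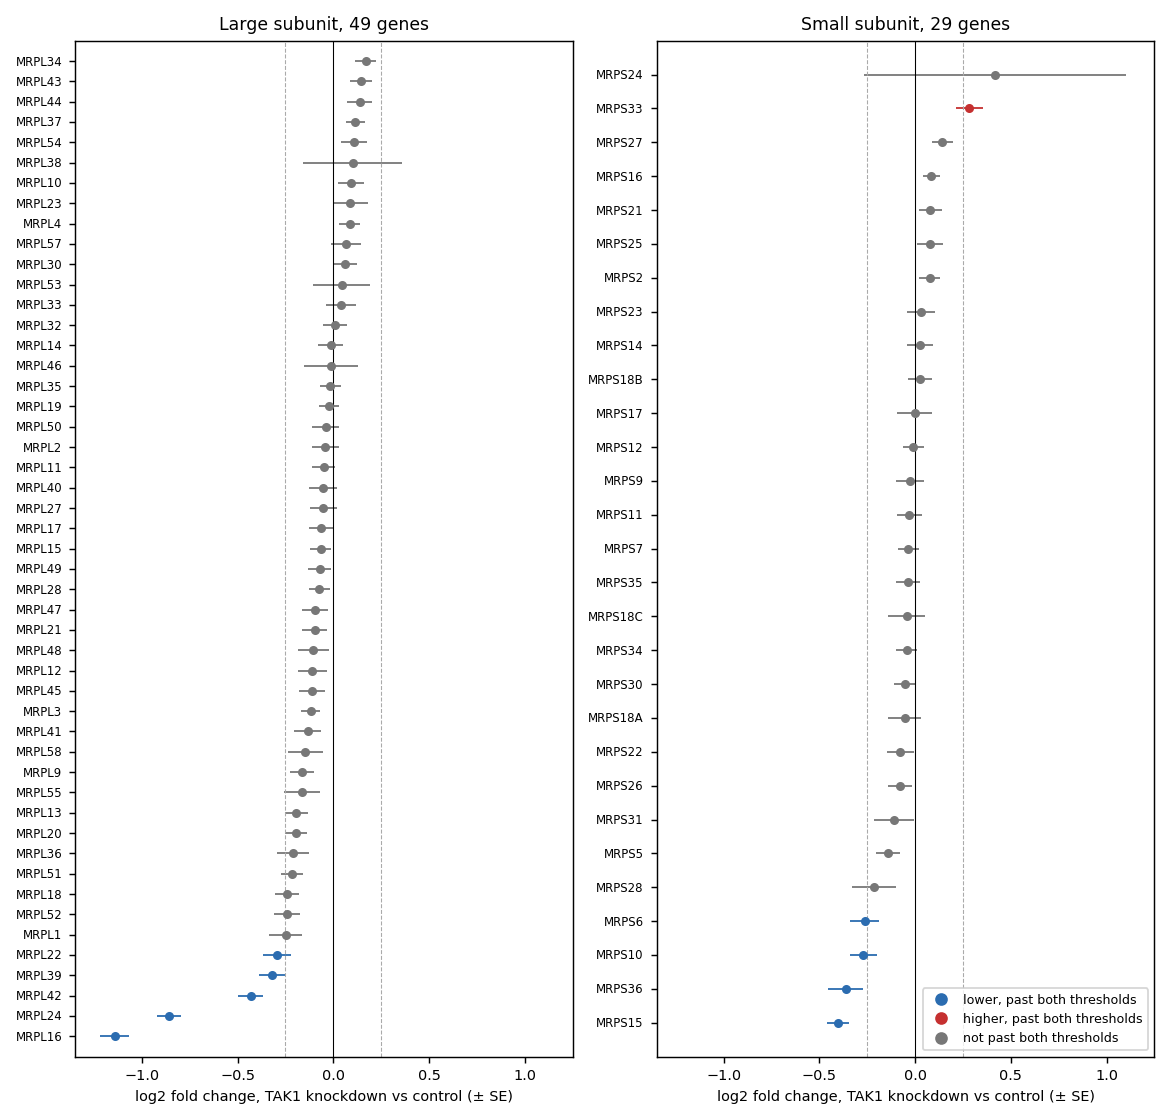
The log2 fold change of each member, TAK1 knockdown over control, is plotted with its standard error (3 samples a group), with the large subunit on the left and the small subunit on the right; dashed lines mark 0.25 in either direction. MRPL16 at -1.14 and MRPL24 at -0.86 lie apart from the other members, and MRPS24, the member with the fewest counts, has the widest error.

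The sequence letters around the gene starts of the called members are shown first, since they can be read beside the changes. RefSeq promoters (GRCh38.p14, 250 bases before to 50 after the gene start) were found for 69 of the 78 members. Both strands were searched for CCGGAAG, the core bound by ETS factors such as GABPA, for AAGATGGCG, bound by YY1, for the 10-letter palindrome of NRF1 and for the E-box CACGTG. Of the 69 member promoters, 29 (42.0%) held the ETS letters, against 10.7% of all 27305 promoters and 18.7% of the 10827 promoters of tested genes. The YY1 letters were in 13 (18.8%), against 1.85% of all promoters and 3.81% of those of tested genes. The E-box was in 6 (8.70%), against 7.43% and 10.2%, and the NRF1 palindrome was in 1, that of MRPL17, against 1.36% and 2.28%. Large and small subunit members did not stand far apart for ETS (40.5% and 44.4%) or YY1 (19.05% and 18.5%). The E-box was in 5 of 42 large and 1 of 27 small subunit promoters (11.9% and 3.70%).

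Among the 8 lower members with a promoter in the table, MRPL16 and MRPS10 held the ETS letters, MRPL22, MRPL42 and MRPS10 held the YY1 letters, and MRPL22 also held the E-box. MRPL24, MRPL39, MRPS15 and MRPS6 held none of the 4 motifs in this window. MRPS33, the higher member, held the ETS letters. In 3 cases the YY1 letters lie after the gene start, 9 bases in MRPL42, 10 in MRPS10 and 36 in MRPL22. The windows of 30 bases, 5′ to 3′ on the strand of the gene with the motif in capitals, are these:
MRPL16, ETS letters on the other strand, chr11:59810766-59810795, minus strand: agtgaacacaaCTTCCGGccccactgagcg
MRPS33, ETS letters on the other strand, chr7:141014934-141014963, minus strand: agagggcgggcCTTCCGGgacgagggcgcg
MRPS10, ETS letters, chr6:42217865-42217894, minus strand: ccgctgtaaccCCGGAAGcaatcctgagag
MRPS10, YY1 letters, chr6:42217833-42217862, minus strand: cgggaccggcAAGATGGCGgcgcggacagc
MRPL42, YY1 letters, chr12:93467512-93467541, plus strand: ggattgaaacAAGATGGCGggttcgtggtg
MRPL22, YY1 letters, chr5:154941093-154941122, plus strand: gtagcgggagggcgaAAGATGGCGgcggca
MRPL16 and MRPS10, which were lower, and MRPS33, which was higher, thus share the ETS letters, and a match of letters is a description of the sequence, not evidence of a bound factor.

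MRPL16 encodes the relative of a bacterial protein at the tRNA binding sites next to the peptidyl transferase centre. The gene maps to chromosome 11 (59806140 to 59810778, minus strand, GRCh38) and its exons overlap no other annotated gene. It had 37.2, 39.4 and 35.2 CPM in the control samples and 16.6, 16.96 and 17.1 CPM in the knockdown samples. All knockdown samples lay below all controls, and the knockdown samples lay closer to each other than the controls did. The log2 fold change was -1.14 ± 0.074 (SE, n = 3 a group, edgeR adjusted p = 1.01e-11), close in size to that of MAP3K7 itself.

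MRPL24 (chromosome 1, 156737303 to 156741590, minus strand) encodes the relative of a bacterial protein that starts assembly of the large subunit and lies near the exit of the peptide tunnel. It stood at 63.0, 60.6 and 67.8 CPM in control and at 36.6, 34.6 and 34.6 CPM in knockdown samples. The groups did not overlap, and the log2 fold change was -0.86 ± 0.063 (edgeR adjusted p = 9.74e-11). MRPL22, whose bacterial relative lines the same tunnel, was at 27.7, 27.1 and 28.5 CPM in control and at 21.4, 22.99 and 23.5 CPM in knockdown samples (log2 fold change -0.30 ± 0.074, edgeR adjusted p = 0.00285). MRPL4 and MRPL23, which also encode proteins at the tunnel, gave values above 0 that did not pass the test, 0.09 ± 0.056 and 0.09 ± 0.092. MRPL45, whose protein holds the ribosome at the inner membrane, gave -0.11 ± 0.066 and did not pass either.

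MRPL42 and MRPL39 encode proteins of the large subunit that bacteria lack. MRPL42 had 62.7, 63.6 and 64.6 CPM in control and 42.1, 50.1 and 49.1 CPM in knockdown samples. The 3 control samples were close together and the first knockdown sample was the lowest of the 6 (log2 fold change -0.43 ± 0.064, edgeR adjusted p = 9.11e-06). MRPL39 was at 29.9, 31.2 and 30.1 CPM in control and at 23.05, 25.1 and 24.96 CPM in knockdown samples (log2 fold change -0.32 ± 0.071, edgeR adjusted p = 0.00111). Exons of MRPL42 share 1.72% of their length with the non-coding row RN7SL737P, and those of MRPL39 overlap no annotated gene.

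In the small subunit, MRPS15, whose bacterial relative binds the rRNA early in assembly, had 83.6, 88.7 and 93.5 CPM in control and 64.1, 68.8 and 68.2 CPM in knockdown samples. The highest knockdown sample lay well below the lowest control (log2 fold change -0.40 ± 0.056, edgeR adjusted p = 3.53e-06). MRPS10, of the head of the subunit, had 57.1, 51.95 and 53.7 CPM in control and 39.8, 48.9 and 45.9 CPM in knockdown samples (-0.27 ± 0.070, edgeR adjusted p = 0.00362). MRPS6, of the platform, had 22.8, 24.5 and 24.3 CPM in control and 19.5, 20.5 and 19.6 CPM in knockdown samples (-0.26 ± 0.076, edgeR adjusted p = 0.00908). Neither group pair overlapped, but both calls lie close to the fold threshold. MRPS10 was at -0.19 without the first knockdown sample and at -0.23 without the first control sample, and MRPS6 at -0.25 without the second control sample, none of which was called. With scaling by library size alone MRPS10 (-0.22), MRPS6 (-0.21) and MRPL22 (-0.25) were not called. Exons of MRPS6 overlap those of SLC5A3 and a long non-coding RNA on the same strand, so a part of its reads may be shared. The larger of these overlaps covers 6.88% of its merged exons (4273 bases, against 931 in its canonical transcript).

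MRPS33, a small subunit protein particular to mitochondria, was the only member called higher in the main test. It had 24.9, 24.8 and 26.2 CPM in control and 29.1, 31.2 and 31.99 CPM in knockdown samples (log2 fold change 0.28 ± 0.072, edgeR adjusted p = 0.00312). Every knockdown sample lay above every control. Without the third knockdown sample the log2 fold change was 0.24, below the fold threshold. MRPS36, the dehydrogenase subunit that carries a ribosomal name, had 15.3, 14.7 and 14.1 CPM in control and 11.5, 11.3 and 11.5 CPM in knockdown samples (-0.36 ± 0.092, edgeR adjusted p = 0.00338). Without it, 3 small subunit members were called lower.

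**Figure D2:**
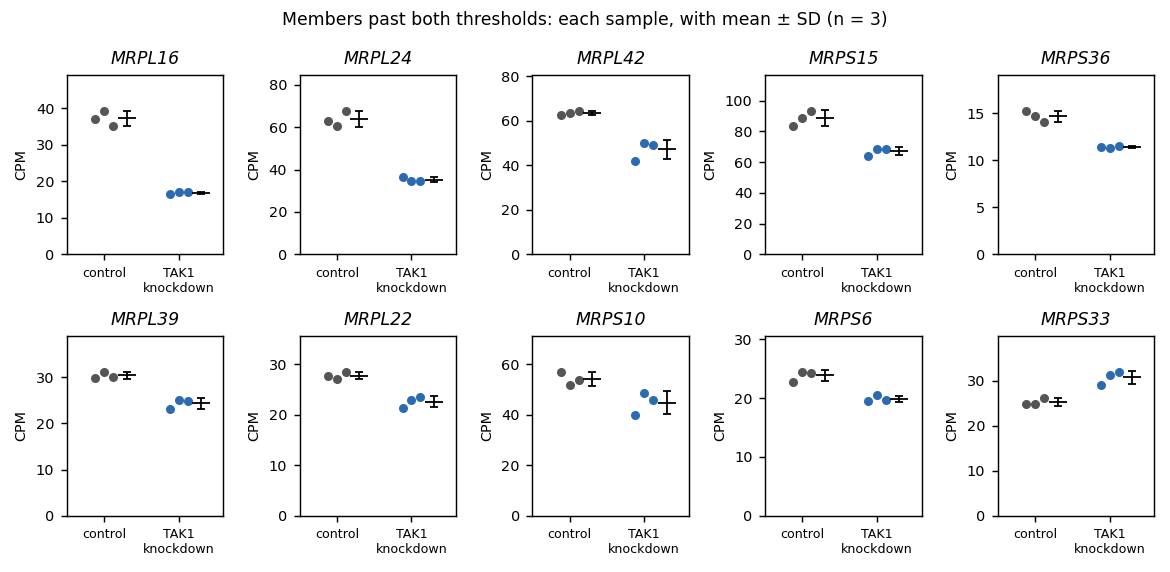
CPM of each of the 10 called members is plotted for the 3 control and 3 TAK1 knockdown samples as points, with the mean and SD beside them; every axis starts at 0. The knockdown samples of MRPL16 lie at 16.6 to 17.1 CPM against 35.2 to 39.4 CPM in control, and in all 10 panels the groups do not overlap.

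A further 8 members passed the adjusted p but not the fold threshold, 7 below and 1 above control. Among these, MRPL51 had 76.1, 78.9 and 80.3 CPM in control and 64.5, 66.3 and 71.6 CPM in knockdown samples (log2 fold change -0.22 ± 0.056, edgeR adjusted p = 0.00369). MRPL18, which binds the ribosome's structural RNA at the central protuberance, had 58.3, 57.7 and 57.6 CPM in control and 44.3, 49.5 and 53.0 CPM in knockdown samples (-0.24 ± 0.064, edgeR adjusted p = 0.0049). MRPL52 had -0.24 ± 0.068 (edgeR adjusted p = 0.00714). MRPL1, of the L1 stalk, was the member just outside the fold threshold, at -0.249 (edgeR adjusted p = 0.0248), and MRPS6 was the member just inside it. MRPL34, the relative of a small bacterial protein, was the member above control, with 55.8, 53.1 and 55.3 CPM in control and 61.6, 61.3 and 61.7 CPM in knockdown samples (0.17 ± 0.056, edgeR adjusted p = 0.0213). The adjusted p of MRPL34 rose to 0.0536 without the filter on low counts, and to 0.130, 0.0593 and 0.0565 without the second control, the third control or the third knockdown sample in edgeR's test, so it did not pass there. With the adjusted p alone, 16 of 78 members were lower and 2 higher, while 17.2% of all tested genes were lower and 16.1% higher. At a fold threshold of 0.5, MRPL16 and MRPL24 remained as the 2 lower members and 0 were higher, against 4.27% and 4.61% of all tested genes.

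The members were read against the background under the other settings too. MRPL1 joined the 10 called members with RLE size factors (11.7% of all tested genes lower and 11.4% higher), with DESeq2 (12.1% and 11.2%), with limma-voom (11.3% and 11.4%) and with the replicate number as a block (11.6% and 12.2%), so that 10 members were lower and 1 higher in each. With library size alone 6 members were lower and 1 higher, against 8.81% and 14.9% of all tested genes. Without the filter on low counts 11 were lower and 1 higher, against 6.39% and 6.17%, and with at least 10 counts in every sample 9 were lower and 1 higher, against 12% and 12.9%. The share of higher members thus stayed below the background in each of these settings.

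The remaining members did not pass the adjusted p. MRPS24 gave 0.42 ± 0.68 on very few counts, and MRPS28 and MRPL36 gave -0.22 ± 0.11 and -0.21 ± 0.082. The 3 proteins of the factor-binding stalk region gave 0.09 ± 0.067 for MRPL10, -0.05 ± 0.060 for MRPL11 and -0.11 ± 0.077 for MRPL12, none of which passed the test. MRPL58, which encodes a peptidyl-tRNA hydrolase built into the large subunit, gave -0.15 ± 0.093. The 3 relatives of a single bacterial protein, MRPS18A, MRPS18B and MRPS18C, gave -0.06 ± 0.088, 0.03 ± 0.061 and -0.04 ± 0.096, and MRPS30 gave -0.05 ± 0.058. MRPS18B turned to -0.01 without the second knockdown sample, and MRPS18C to 0.01 with library size alone. Of the 48 members with a bacterial relative 6 were called lower and 0 higher (median log2 fold change -0.051), and of the 30 particular to mitochondria 3 were called lower and 1 higher (median -0.048). These are 12.5% and 10% of the members of each kind called lower, near the 11.3% of all tested genes. Called higher were 0% and 3.33%, against 11.8% of all tested genes. The 30 include MRPS36, the dehydrogenase subunit, which was called lower, so the 10% depends on it. The other lower members of that kind are MRPL42 and MRPL39.

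Across subunits, the median log2 fold change was -0.066 in the large and -0.034 in the small subunit, while the median of all tested genes was 0.018; with library size alone these became -0.018, 0.014 and 0.066, so the sign of the small subunit's median turned. A value below 0 was found for 35 of 49 large subunit and 19 of 29 small subunit members, against 7565 of the 15935 tested genes. The middle 50% of the 78 members lay between -0.15 and 0.04, a narrower range than the -0.16 to 0.22 of all tested genes. The genes were not matched for level. The middle 50% of the 80 tested cytosolic ribosomal protein genes was narrower still, from -0.07 to 0.01. The 3 knockdown samples lay below the 3 controls without overlap for 21 members and above them for 6, where 22.2% and 21.6% of all tested genes did so. By subunit, 16 large and 5 small subunit members lay below, and 3 of each lay above.

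Summed over the 49 large subunit genes, the level was 2474, 2482 and 2495 CPM in control and 2319, 2335 and 2375 CPM in knockdown samples. This is 94.3% of the control mean (2484 ± 10.8 against 2343 ± 28.7 CPM, SD, n = 3). Summed over the 29 small subunit genes, it was 1405, 1408 and 1414 CPM in control and 1360, 1396 and 1392 CPM in knockdown samples, or 98.1% of control (1409 ± 4.91 against 1383 ± 19.5 CPM). The groups did not overlap in either sum by symbol, but they overlapped for the small subunit when members were placed by structure, which gave 98.5%. Since the members were chosen with results known, no test was made on the sums.

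The log2 ratio of the large to the small sum was 0.816, 0.818 and 0.819 in control and 0.770, 0.742 and 0.771 in knockdown samples. The difference of the group means was -0.057, or -0.061 with members placed by structure. MRPL16 and MRPL24 carried a large part of it, since without them the large sum was 96.2% of control and the difference of the ratio was -0.029. The knockdown samples still lay below the controls without these genes, at 0.710 to 0.739 against 0.757 to 0.759.

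**Figure D3:**
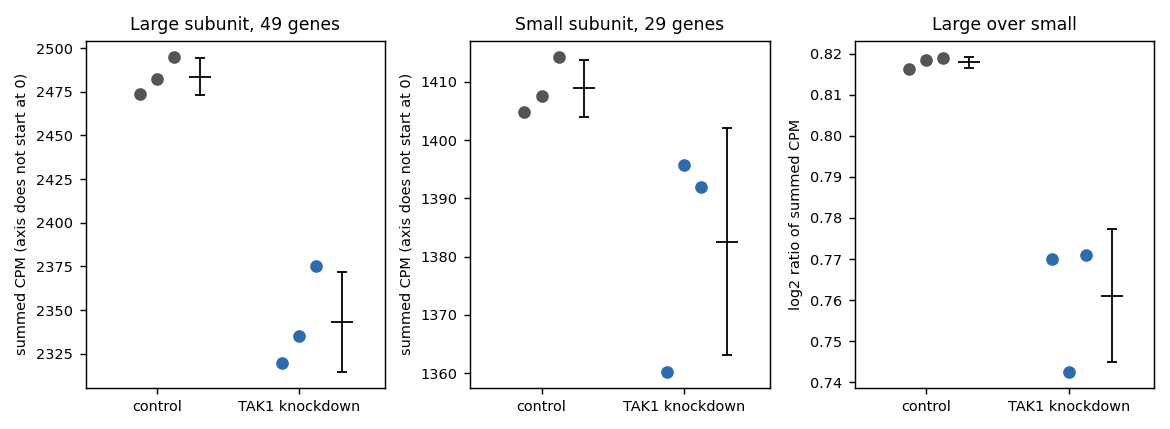
Summed CPM of the large subunit genes (left), of the small subunit genes (middle) and the log2 ratio of the large to the small sum (right) are plotted for each sample, with the mean and SD of 3 samples; the axes do not start at 0. The large sum is 94.3% and the small sum 98.1% of the control mean, and the ratio lies at 0.742 to 0.771 in knockdown against 0.816 to 0.819 in control samples.

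Levels between genes were compared per kilobase of merged exons, as the mean over all 6 samples. The median was 20.4 CPM per kb in the large and 8.98 CPM per kb in the small subunit, and with the length of the Ensembl canonical transcript it was 31.9 and 23.6, so the size of this gap depends on the length used. With merged exons, MRPL41 (143 CPM per kb) and MRPL37 (76.3) were the highest large subunit genes, and MRPS34 (78.5) and MRPS16 (60.0) the highest small subunit genes. None of these was called, with log2 fold changes of -0.13 ± 0.070, 0.12 ± 0.051, -0.04 ± 0.057 and 0.09 ± 0.046. With canonical transcripts MRPL41 (143) and MRPL37 (131) kept their places, but in the small subunit MRPS12 (97.5) came first, before MRPS34 (85.9), MRPS15 (81.6), which was called lower, MRPS7 (65.3) and MRPS16 (64.99). MRPS25 stood at 2.22 CPM per kb with merged exons of 18309 bases and at 8.88 with its canonical transcript. Over the 78 members, the log2 fold change had a Pearson correlation of -0.11 and a Spearman correlation of 0.11 with the log2 level in CPM, which differ in sign, and correlations of 0.09 and 0.15 with the log2 exon length, given as a description over genes measured in the same libraries.

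Members near the bottom of the range held few counts or shared exons. MRPS24 had 10, 7 and 4 counts in control and 0, 17 and 14 counts in knockdown samples, at most 0.481 CPM. Its exons overlap those of the read-through gene URGCP-MRPS24, whose own row held at most 1 count in a sample, and how reads on both were counted is not stated in the sources used here. MRPL38 had 48 to 76 counts in control and 46 to 95 counts in knockdown samples. Of its merged exons (3342 bases), 41.1% is shared with another gene on the same strand, and its canonical transcript has 1358 bases. For MRPS24 the shared part is 23.2% of 2607 merged bases, with a canonical transcript of 667 bases. No difference was detectable for MRPS24 or MRPL38 at these counts. MRPL46 stood at 5.24 to 7.46 CPM in control and 6.14 to 7.35 CPM in knockdown samples. In all, 18 members share exon sequence with another gene on the same strand, with the largest shares in MRPL53 (72.8%) and MRPL12 (69.5%). MRPS6 and MRPL42 are among the 18, and 41 members share exon sequence with a gene on either strand. Since strand use in the counting is not stated, the levels of all 41 are uncertain.

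**Figure D4:**
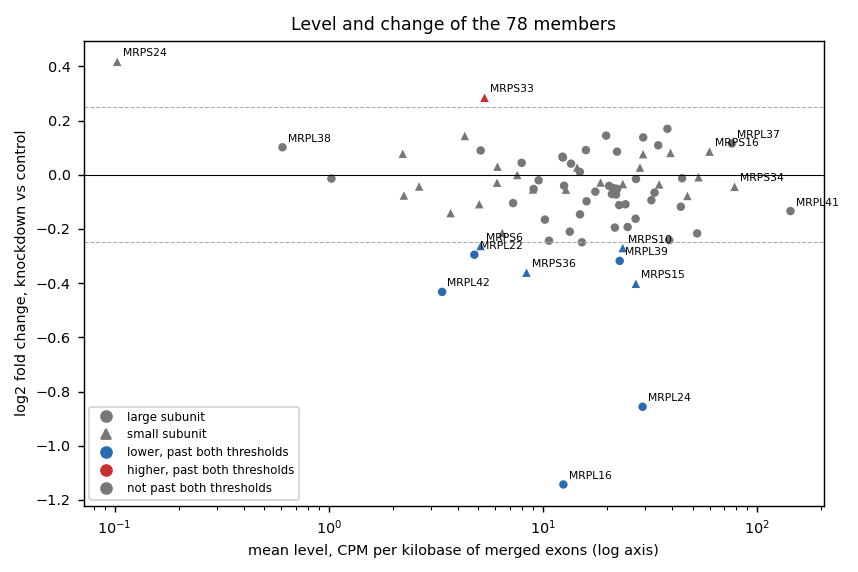
The log2 fold change of each of the 78 members (vertical axis) is plotted against its mean level in CPM per kilobase of merged exons (horizontal log axis), with circles for the large and triangles for the small subunit. The called members lie at 3.38 to 29.2 CPM per kb, where all members span 0.103 to 143, and MRPL42 is the lowest of those called. MRPL41, MRPL37, MRPS34 and MRPS16, the highest by this length, lie between -0.13 and 0.12 on the vertical axis.

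The members lie on 21 chromosomes, with 8 each on chromosomes 1, 2 and 17. A gene on the opposite strand starts within 1 kb of 27 of them (34.6%), against 2287 of the 13003 tested protein-coding genes (17.6%). MRPL46 and MRPS11 form such a pair with each other. For the 25 members whose partner was tested, the log2 fold changes of member and partner had a Pearson correlation of 0.52 and a Spearman correlation of 0.48, given as a description, since the pairs share libraries and the pair of MRPL46 and MRPS11 counts for both genes. In 7 of these pairs, MRPL51 with NCAPD2, MRPL13 with MTBP and MRPL11 with PELI3 among them, the exons overlap and reads may be shared, and over the other 18 the correlations were 0.48 and 0.42. MRPL18 (-0.24) starts next to TCP1 (-0.22), a chaperonin subunit gene. MRPL51 (-0.22) lies beside NCAPD2 (-0.23), a condensin gene, and MRPL13 (-0.19) beside MTBP (-0.27), which was called lower. MRPL11 (-0.05) lies beside PELI3 (0.44), which was called higher. None of the 10 called members has a partner of this kind.

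The strand of the shRNA that guides repression pairs through its seed with the letters CATATTA, and these were looked for in the annotated coding transcripts, UTRs included, after the changes were known. They were found in 9 of the 78 members (11.5%), against 18.7% of the tested genes with such transcripts. Among the 9 lower members MRPL42 and MRPS10 held them, while MRPL16 and MRPL24 did not, and MRPS33, the higher member, held them.

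Other parts of the same machinery were described from lists written by hand. Of the 5 mitoribosome proteins in the table without an MRPL or MRPS symbol, 0 were called in either direction. DAP3, a GTP-binding protein of the small subunit, passed the adjusted p with 199, 204 and 203 CPM in control and 173, 189 and 180 CPM in knockdown samples (-0.16 ± 0.047, edgeR adjusted p = 0.00897), though not with library size alone (0.0636) or without the second control sample (0.0539). PTCD3, a pentatricopeptide repeat protein of the small subunit, also passed it (-0.22 ± 0.059, edgeR adjusted p = 0.00587). AURKAIP1 gave -0.03 ± 0.057, CHCHD1 0.06 ± 0.062 and GADD45GIP1 -0.00 ± 0.050. Of these, AURKAIP1 and GADD45GIP1 turned above 0 with library size alone.

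Of 29 tested assembly and rRNA modification genes, 2 were called higher and 1 lower, with a median of -0.009. These are 6.90% and 3.45% of the list, against 11.8% and 11.3% of all tested genes. The methyltransferase gene MRM1 had 6.54, 5.94 and 6.36 CPM in control and 11.9, 7.59 and 7.57 CPM in knockdown samples (0.51 ± 0.15, edgeR adjusted p = 0.00891). It rested on the first knockdown sample, without which the log2 fold change was 0.27 and not called. MTG1, a GTPase of large subunit assembly, gave 0.50 ± 0.13 (edgeR adjusted p = 0.0032), and MPV17L2 gave -0.33 ± 0.079 (edgeR adjusted p = 0.00203), or -0.25 and not called without the second knockdown sample. Of 16 translation factors, MTFMT, which formylates the initiator tRNA, was called higher (0.27 ± 0.10, edgeR adjusted p = 0.0396), a call that was lost in 4 of the 6 fits that left out a sample, with values from 0.19 to 0.27. MTFMT alone is 6.25% of that list, and 0 of its genes were called lower. By the adjusted p alone 3 translation factors were lower and 2 higher, against 17.2% and 16.1% of all tested genes. The lower ones were LRPPRC (-0.20 ± 0.044, edgeR adjusted p = 0.000709), SLIRP (-0.19 ± 0.070, 0.0396) and GFM1 (-0.17 ± 0.057, 0.0273). The higher ones were MTFMT and OXA1L (0.15 ± 0.049, 0.0234). Of 5 mitochondrial transcription genes 0 were called.

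The 15 mitochondrially encoded genes, which include the mRNAs this ribosome translates and both of its rRNAs, all had values above 0, with a median of 0.16, and 10 passed the adjusted p, all of them higher. Of all 15935 tested genes, 8370 lay above 0, and 16.1% were higher by the adjusted p alone. The summed mitochondrial mRNA was 8448, 9239 and 9756 CPM in control and 10380, 9951 and 10874 CPM in knockdown samples, 114% of the control mean, without overlap. Past the fold threshold were MT-CO1 (0.27 ± 0.045, edgeR adjusted p = 4.46e-05) and MT-ATP8 (0.26 ± 0.096, edgeR adjusted p = 0.0399). These are 13.3% of the 15 genes, near the 11.8% of all tested genes called higher. MT-CO1 was at 2477, 2721 and 2828 CPM in control and at 3265, 3059 and 3346 CPM in knockdown samples, and its log2 fold change was 0.22 without the first control and 0.23 without the third knockdown sample. The large-subunit rRNA gene MT-RNR2 gave 0.25 ± 0.051 (edgeR adjusted p = 0.000517), just under the fold threshold, and the small-subunit rRNA gene MT-RNR1 gave 0.19 ± 0.073 (edgeR adjusted p = 0.0416). The value of MT-RNR1 rested on the third knockdown sample (0.04 without it), and it did not pass the adjusted p in DESeq2 (0.351), in voom (0.0610) or in 4 of the 6 fits without a sample; MT-RNR2 was 0.15 without that sample. MT-ATP8 lost its call in 4 of the 6 fits without a sample. In a poly(A) library the rRNA levels depend on how much of it was captured.

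The cytosolic ribosome, measured over 80 genes, had 2 genes called lower, RPL22 (-0.45 ± 0.054, edgeR adjusted p = 3.56e-07) and RPS21 (-0.33 ± 0.045, edgeR adjusted p = 3.32e-06), and 0 higher, with a median of -0.041. The lower genes are 2.5% of the list, below the 11.3% of all tested genes called lower, and 11.8% of all tested genes were called higher. Of the 8 tested regulators of nuclear genes for mitochondria, ESRRA, NRF1 and GABPB1 were called lower and MYC and PPARGC1B were called higher. These are 37.5% and 25% of a short list, against the same 11.3% and 11.8%. ESRRA, a nuclear receptor, had 53.6, 52.6 and 57.8 CPM in control and 39.6, 35.2 and 34.9 CPM in knockdown samples (-0.58 ± 0.066, edgeR adjusted p = 1.89e-07). NRF1 had 40.8, 38.1 and 36.3 CPM in control and 30.6, 27.2 and 30.9 CPM in knockdown samples (-0.38 ± 0.072, edgeR adjusted p = 0.000206). MYC had 231, 222 and 227 CPM in control and 292, 285 and 279 CPM in knockdown samples (0.33 ± 0.044, edgeR adjusted p = 1.66e-06). PPARGC1B gave 0.27 ± 0.065 (edgeR adjusted p = 0.00227) and GABPB1 -0.29 ± 0.088 (edgeR adjusted p = 0.0118); each lost its call in 2 of the 6 fits without a sample. GABPA and YY1, whose letters were counted in the promoters, gave -0.14 ± 0.065 and -0.09 ± 0.046 and did not pass the test.

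**Figure D5:**
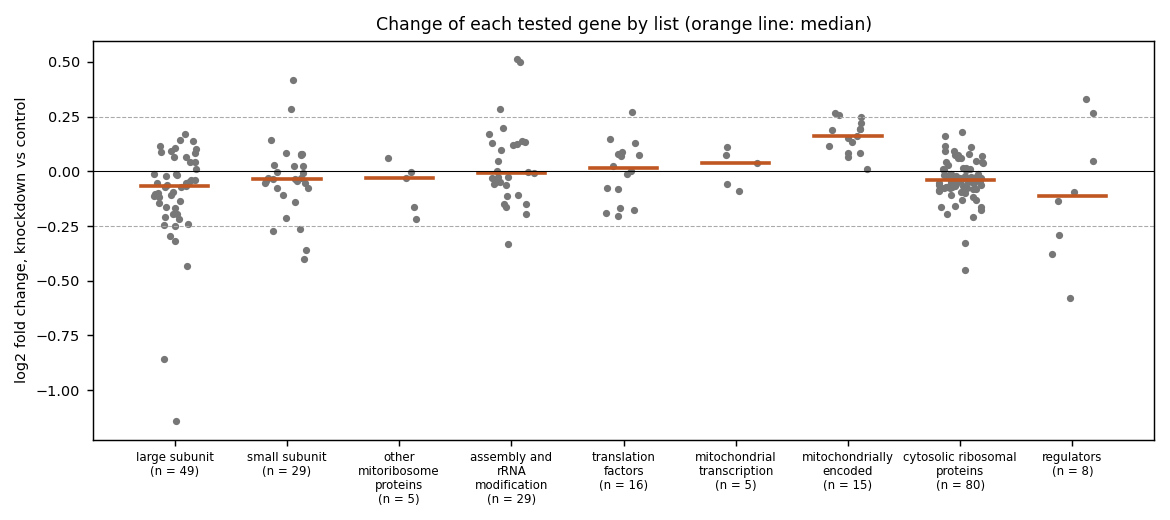
Each point is the log2 fold change, TAK1 knockdown over control, of a tested gene, arranged by list along the horizontal axis, and the orange line is the median of the list; dashed lines mark 0.25 in either direction. The medians of the large (-0.066) and small (-0.034) subunit lie beside that of the cytosolic ribosomal proteins (-0.041), and all 15 mitochondrially encoded genes lie above 0.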

How the data were processed

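RNA-seq of RD cells (3 samples with scrambled shRNA, 3 with TAK1 shRNA, grouped by their labels) was analysed. The authors deposited raw counts of reads per gene, without normalization, after CASAVA base calling, read filtering and STAR alignment to GRCh38 (hg38). The counting program, annotation release, strand use and handling of multiply aligned reads are not given in the sources used here. Total counts ran from 28839898 to 34469323, and replicates differed by more than sampling noise (chi-square per degree of freedom 2.88 to 8.60, common biological coefficient of variation 5.67%).

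Counts were tested with edgeR 4.0.16 in R 4.3.3 (default filter, TMM scaling, quasi-likelihood test, p-values adjusted by Benjamini-Hochberg across the 15935 tested genes, adjusted p under 0.05, absolute log2 fold change of at least 0.25). TMM scaling and both thresholds are as in the study's methods, which name no test for these counts and no filter on low counts. Standard errors are the log2 fold change over the square root of F. The script was tested on simulated data. Alternatives were DESeq2 1.42.0, limma 3.58.1 (voom), other size factors, filters and fold thresholds, a replicate block, subunits by structure and leaving out each sample. Positions, lengths and overlaps came from GENCODE 44 and promoters from RefSeq. The members and all gene lists were chosen with earlier results of these data known. The text names the called members, the next by adjusted p, the highest and lowest levels, members whose structure and symbol disagree and called genes of the other lists. The genes shown for a role or a neighbour, the seed search, canonical lengths and sums without MRPL16 and MRPL24 were chosen after values were seen.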

Additional observations from a re-analysis of the deposited data

How the results depend on the processing

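MAP3K7, MRPL16, MRPL24, MRPL42, MRPL39, MRPS15 and MRPS36 kept their direction and call under every normalization, test, filter, replicate block and left-out sample tried, with MRPL16 between -1.18 and -1.09 and MRPL24 between -0.89 and -0.81 on the log2 scale. Of 49 large subunit members, 12 were lower and 1 higher with no fold threshold, against 17.2% and 16.1% of all tested genes. At a fold threshold of 0.5, 2 were lower, against 4.27%. Of 29 small subunit members, 0 were higher and 0 lower at 0.5, against 4.61% and 4.27% of all tested genes. With library size alone 2 were lower, against 8.81%. Leaving out a sample gave 5 to 8 lower large subunit members, the 8 without the third knockdown sample, and 0 to 1 higher small subunit members. In that fit 13 of 78 members were lower, against 11.9% of all tested genes, and in the other 5 fits 8 to 10 were lower, against 10.3% to 11.4%. Over all 6 fits, 9.66% to 11.1% of all tested genes were higher. Medians moved to -0.018 (large) and 0.014 (small) with library size alone, and ran from -0.088 to -0.056 and from -0.048 to -0.019 with a sample left out. The ratio difference was -0.029 without MRPL16 and MRPL24 (chosen after seeing the data) and -0.062 to -0.048 with a sample left out. RLE size factors, DESeq2, voom and the replicate block each called 11 members, the 10 of the main test and MRPL1. The same-numbered samples showed correlations of 0.016 to 0.037 in their deviations from the group means. Samples of unlike number showed correlations of -0.052 to 0.019. All these values were near 0, and pairing was not tested. The replicate block left 6 large and 4 small subunit members lower and 1 small subunit member higher, against 11.6% and 12.2% of all tested genes.

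Among the genes named, those whose sign turned were not called. Library size alone moved the median of all genes from 0.018 to 0.066. With it MRPL46 (0.034), MRPS34 (0.0039), MRPS18C (0.0053), AURKAIP1 (0.018) and GADD45GIP1 (0.047), all near 0 in the main test, lay above 0. MRPS7 (-0.034), MRPS11 (-0.030) and MRPS12 (-0.009), named for their level or neighbour, were also near 0 in the main test and are not followed here. MRPS24 was -0.54 with voom, and GADD45GIP1 was 0.00034 with voom and 0.0025 with at least 10 counts in every sample. With a sample left out, MRPL38 ran from -0.13 to 0.32 (-0.056 without the second control), MRPL46 from -0.16 to 0.078 (above 0 in 4 of 6 fits, at 0.015, 0.030 and 0.048 in the others), MRPS24 from -0.075 to 0.95, MRPS18B from -0.011 to 0.061, AURKAIP1 from -0.081 to 0.029 and GADD45GIP1 from -0.028 to 0.040 (0.0065 between). The cause of the shifts with voom, the filter or a sample left out was not tested. The counts of MRPS24 and MRPL38 are low, and both genes share exons with another gene on the same strand. Why the counts are low was not tested. Groups of 3 samples cannot give an exact permutation p under 0.1. The ratio comes from no test, so it has no value under DESeq2, voom or the replicate block.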
